A study of Rattus norvegicus with 20 samples.

Results

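Zymosan and PAM3CSK4, both agonists of Toll-like receptor 2 (TLR2), were compared in cultured rat microglia over the 8 libraries of those groups, 4 each, out of 20 libraries in the study. The libraries were chosen by their labelled treatment alone, and the comparison runs over the 8858 of 17310 gene symbols that reached at least 1 FPKM in at least 4 of the 20 libraries. FPKM scales fragments to transcript length and to the mapped fragments of a library, so that levels of different genes can be set beside each other per length. All 20 cultures shared their preparation: myeloid cells were taken by CD11b-immunopanning from the perfused, myelin-depleted brains, without cerebellum, of male Sprague-Dawley rats aged 21 days, and spent 5 days in a medium without serum. Each agent then arrived with a 50% change of medium. PAM3CSK4 was given at 1 ng/mL and zymosan at 100 ug/mL. The other groups used here are PBS, the vehicle control, and LPS, an agonist of TLR4, at 1 ng/mL; a morphine group at 1 uM entered only the shared estimate of spread. The agonists differ both in kind and in dose, which cannot be told apart in this design. The labels used here do not state how long the agents acted before lysis. The labels number the replicates but do not say whether these are separate cultures or animals, so p-values reflect the spread among these libraries, part of which could be technical.

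Toll-like receptors are sentinel receptors that signal through the adaptor MyD88 to NF-kB and MAP kinases and switch on cytokine genes. PAM3CSK4 is a synthetic triacylated lipopeptide recognised by TLR2 paired with TLR1. Zymosan is a particle from the yeast cell wall; TLR2 paired with TLR6 responds to it, and its beta-glucan also binds dectin-1, a C-type lectin encoded by Clec7a that signals through the kinase Syk and the adaptor CARD9 and drives phagocytosis. Microglia, the resident macrophages of the brain, carry both receptor systems and clear particles into lysosomes.

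The deposited values move in whole steps per gene, which gave the libraries' relative depth. Set against zymosan replicate 3 as 1, the depth was 0.946 to 1.41 with PAM3CSK4 and 1 to 1.41 with zymosan. Over the 7871 tested genes whose steps could be resolved, 6280353 to 6942186 reads lay behind a PAM3CSK4 library and 6703282 to 8822658 behind a zymosan library. Replicate 1 stood apart in both groups: 18S ribosomal RNA (Rn18s) was listed at 0 FPKM there and at 2658 to 5028 FPKM in the other PAM3CSK4 and 2674 to 4867 FPKM in the other zymosan libraries, and the median level of the tested genes was 5.64 FPKM in PAM3CSK4 replicate 1 against 8.48 to 9.0 in its group, and 6.85 in zymosan replicate 1 against 8.84 to 9.39. Several list medians and a few gene results are given with and without these libraries, and most single genes only with them. The cells carried the macrophage genes Csf1r (93 ± 22 FPKM with PAM3CSK4 and 144 ± 15 with zymosan, SD, n = 4) and Cd68, whereas the microglial genes P2ry12 and Tmem119 were low after either agonist. Markers of other cells were few: summed astrocyte markers stayed at or under 4.01 FPKM and neutrophil markers at or under 6.34 FPKM in every PAM3CSK4 and zymosan library, with 5 and 6 of 10 astrocyte markers and 6 and 5 of 10 neutrophil markers at 0 in all 4 PAM3CSK4 and all 4 zymosan libraries. Oligodendrocyte, neuron, vascular and lymphocyte lists summed to at most 27.6 FPKM, while markers of border and peripheral macrophages summed to 142.6 to 194.9 FPKM with PAM3CSK4 and 125.9 to 275.3 with zymosan, mostly Pf4. The ranges of both groups overlapped in every one of these lists. In bulk RNA, fewer cells of a type and less RNA per cell cannot be told apart.

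The first question was which genes separate the agonists when each was allowed the spread seen within all groups. None of the 8858 genes passed limma's moderated test at an adjusted p under 0.05 (0.0% of genes tested), with 299 at an unadjusted p under 0.05, of which 244 were higher and 55 lower with zymosan. That split depended on scaling and on single libraries: it was 173 higher and 141 lower after median-ratio rescaling of the libraries, 151 and 86 without PAM3CSK4 replicate 1, and 124 and 41 without zymosan replicate 3. A fit of limma voom to the resolved reads of 7871 genes, which leave out Cd68, Ctsb and Dab2, also gave 0 genes. This limit has a size: the 95% interval of the difference reached, at the median, 0.53 to either side on the log2(FPKM + 1) scale. It lay within 1, that is within 2-fold of FPKM + 1, for 82.1% of genes, which is wider than 2-fold in FPKM for low genes. With 0.1 FPKM added instead of 1 it lay within 1 for 60.7% of genes. With voom on the resolved reads the share was 56.1%. On simulated libraries with the residual spread of all groups, the same fit recovered 60.3% of genes changed 2-fold and 92.6% of those changed 4-fold. In each simulation 200 of 8858 genes were changed at once, and noise was drawn for each library independently. Changes were set on the log2(FPKM + 1) scale, only in genes above about 5 FPKM with PAM3CSK4. These rates therefore do not cover lower genes, a case where fewer genes change, or libraries that deviate together. Against PBS both agonists moved far more genes: 413 were higher (4.66%) and 1257 lower (14.2%) with zymosan, and 498 were higher (5.62%) and 1998 lower (22.6%) with PAM3CSK4. After rescaling these counts were 734 higher and 811 lower with zymosan and 1069 and 1191 with PAM3CSK4. The comparisons share the PBS libraries. Most genes therefore lay close to the diagonal when the mean levels were set against each other, with a median difference of 0.09 and 6172 of 8858 genes above 0; after rescaling the median was 0.00.

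**Figure D1:**
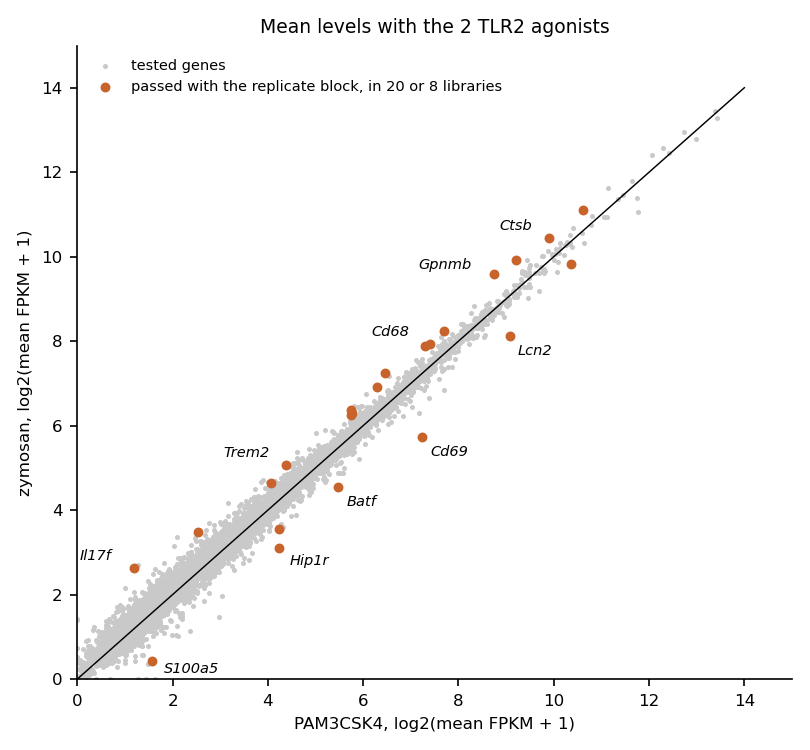
Mean level of each of the 8858 tested genes with zymosan (vertical axis) against PAM3CSK4 (horizontal axis), both as log2(mean FPKM + 1), n = 4 libraries per group; orange points passed with the replicate block in 20 or 8 libraries, and some of them are named. The cloud follows the diagonal (black line), with Cd69 (52.0 against 150 FPKM) well below it.

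Zymosan and PAM3CSK4 libraries with the same replicate number deviated together. Each zymosan library was therefore also compared with the PAM3CSK4 library of its own number, with the number as a block in the model. Over 20 libraries the block also spans PBS, morphine and LPS, whose pairing was not checked. In those groups Rn18s was 0 FPKM in PBS 1, morphine 1 and 2 and LPS 2, against 6244 in LPS 1. With this block 8 genes passed (0.0903% of genes tested): the 5 genes Cd68, Ctsb, Trem2, Dab2 and Tmpo were higher (0.0564%) and the 3 genes Cd69, Batf and S100a5 lower (0.0339%) with zymosan. When the blocked fit was restricted to the 8 libraries, 21 genes passed (0.237%), 15 higher (0.169%) and 6 lower (0.0677%), among them Cd69, Batf, Cd68, Ctsb, Dab2 and Trem2 again. With any 1 pair left out, the blocked fit over 20 libraries gave 0 genes, and the fit of the 8 libraries gave 0, or 2 without pair 4 (Cd69 and Lcn2), while the difference of Cd69 over 20 libraries stayed between -1.73 and -1.45 and that of Cd68 between 0.56 and 0.59.

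Of the genes that were lower with zymosan, Cd69 and Batf passed in both blocked fits and also with block and rescaling. Cd69 encodes an early activation antigen of leukocytes. It stood at 116, 173, 128 and 184 FPKM in PAM3CSK4 replicates 1 to 4 and at 39.4, 53.1, 32.0 and 83.4 FPKM with zymosan. The groups did not overlap, and the 4 PBS libraries averaged 0.36 ± 0.37 FPKM (SD, n = 4), so both agonists lay far above the control. The difference was -1.58 ± 0.30 (SE) on the log2(FPKM + 1) scale, with an adjusted p of 0.26 in limma without the block, 0.0265 with it and 0.00091 with block and rescaling. Batf encodes a basic leucine zipper factor that pairs with Jun and IRF proteins. Its level was 57.3, 44.3, 34.1 and 37.6 FPKM with PAM3CSK4 and 25.4, 22.5, 19.8 and 21.5 with zymosan, against 8.4 ± 1.7 with PBS. All 4 zymosan values lay below all 4 PAM3CSK4 values, a difference of -0.90 ± 0.19 (adjusted p in limma 0.406, with the block 0.043, with block and rescaling 0.0104). S100a5, a small calcium-binding protein, was near the detection limit: 3.18, 0.595, 2.34 and 1.69 FPKM with PAM3CSK4 came from 14, 2, 7 and 5 resolved reads, and 0.680, 0, 0 and 0.741 FPKM with zymosan from 3, 0, 0 and 3. Its call (-1.09, adjusted p in limma with the block 0.046) therefore rests on very few reads and was not made in the 8 libraries alone (adjusted p 0.104). Outside the PAM3CSK4 group S100a5 reached 1 FPKM in 3 libraries, so it entered the test only through the group where it was high, and its call is a description.

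Of the 5 genes that were higher with zymosan and passed with the block, Cd68 and Ctsb belong to the list of lysosomal genes and Trem2 to that of homeostatic microglia. Rescaling ended all 5 calls: with block and rescaling the adjusted p in limma was 0.378 for Cd68, 0.068 for Ctsb, 0.186 for Trem2, 0.073 for Dab2 and 0.122 for Tmpo. Cd68, a heavily glycosylated membrane protein of macrophage late endosomes and lysosomes, stood at 176, 135, 167 and 151 FPKM with PAM3CSK4 and at 268, 194, 248 and 229 with zymosan. The groups did not overlap, so each pair moved the same way, and the difference was 0.57 ± 0.11 (adjusted p in limma 0.26, with the block 0.043). Both groups lay under PBS (332 ± 18 FPKM), and the difference from PBS was -1.08 with PAM3CSK4 and -0.51 with zymosan. Ctsb, the lysosomal protease cathepsin B, measured 763, 878, 1095 and 1104 FPKM with PAM3CSK4 and 1213, 1180, 1597 and 1542 with zymosan, again without overlap (0.53 ± 0.20, adjusted p in limma 1, with the block 0.046). Its mean with zymosan, 1383 ± 217 FPKM, was near that with PBS, 1504 ± 200.

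Trem2 is a lipid-sensing receptor of microglia that signals through Syk. It was 17.6, 15.9, 17.1 and 28.2 FPKM with PAM3CSK4 and 33.2, 28.6, 27.7 and 40.7 with zymosan. Replicate 4 was the highest of both groups, and the ranges overlapped by that PAM3CSK4 value alone (0.72 ± 0.24, adjusted p in limma 1, with the block 0.046). With PBS, Trem2 averaged 113 ± 33 FPKM, above every agonist library. Dab2, an endocytic adaptor, was 28.5, 53.7, 65.8 and 60.9 FPKM with PAM3CSK4 and 55.3, 77.9, 103 and 91.1 with zymosan; replicate 1 was the lowest of both groups, the groups overlapped, and the difference was 0.67 ± 0.30 (adjusted p in limma 1, with the block 0.046), or 0.41 without PAM3CSK4 replicate 1. Tmpo, a nuclear lamina protein, was 11.1, 17.3, 18.1 and 16.8 FPKM with PAM3CSK4 and 21.7, 25.8, 25 and 23.1 with zymosan, without overlap (0.58 ± 0.17, adjusted p in limma 0.902, with the block 0.046, in the 8 libraries alone 0.090).

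**Figure D2:**
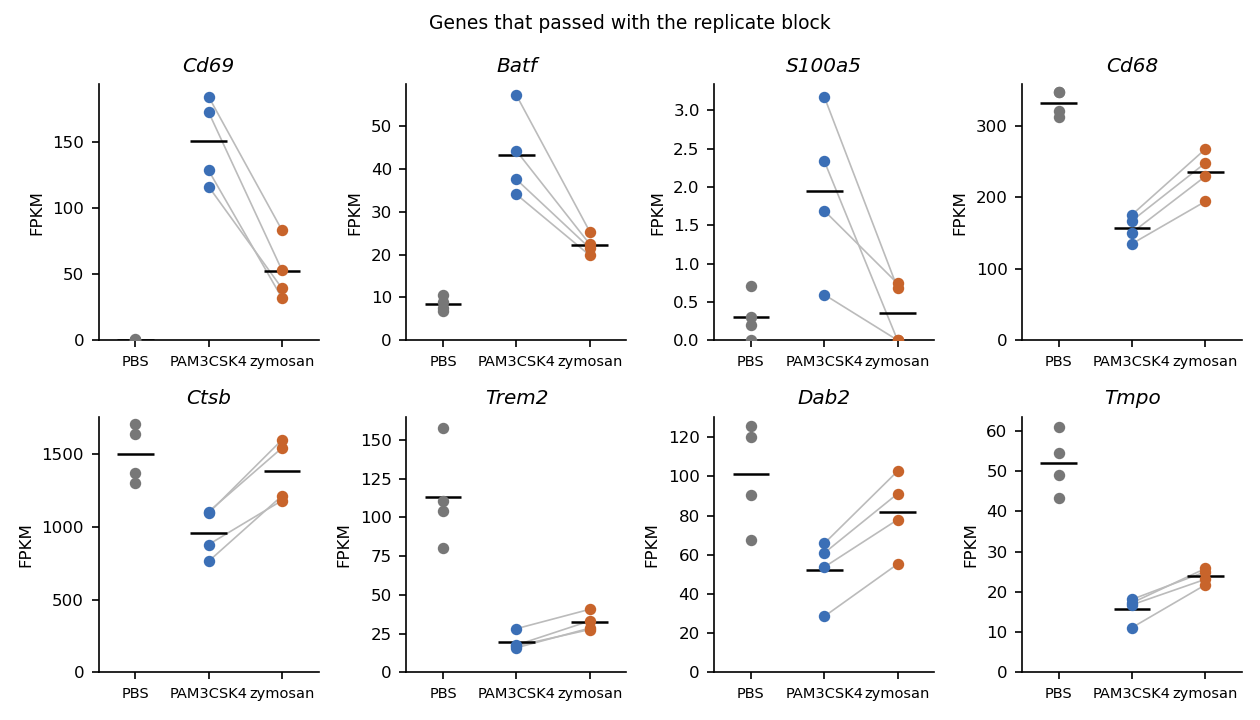
FPKM of the 8 genes that passed with the replicate block, in PBS, PAM3CSK4 and zymosan libraries (n = 4 each), with black bars at the means, grey lines joining PAM3CSK4 and zymosan libraries of the same replicate number, and every vertical axis starting at 0. All 4 lines fall for Cd69, Batf and S100a5 and climb for Cd68, Ctsb, Trem2, Dab2 and Tmpo, and Cd69 is near 0 with PBS (mean 0.36 FPKM).

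With the block, another 15 genes passed in the fit of the 8 libraries and not in that of all 20. Those higher with zymosan included Ctsd, the aspartyl protease cathepsin D, at 378 to 739 FPKM with PAM3CSK4 and 772 to 1220 with zymosan (adjusted p in limma 0.049 in this fit), and Gpnmb, a glycoprotein of lysosomes and of lipid-laden macrophages, at 251 to 593 and 606 to 1094 FPKM. In both genes the lowest zymosan library was above the highest PAM3CSK4 library. Fcgr2b, the inhibitory Fc receptor, differed from these in that both agonists raised it over PBS (83.7 ± 12.1 FPKM): it was 206 ± 30 with PAM3CSK4 and 301 ± 47 with zymosan. Il1rn, the antagonist of the interleukin-1 receptor, was 64.0 to 90.7 FPKM with PAM3CSK4 and 90.9 to 154 with zymosan, and the chemokine Ccl7 was 1216 to 1903 and 1837 to 2806. On the other side, Lcn2, the iron-sequestering antimicrobial protein lipocalin 2, was lower with zymosan, as was Ier3, an early response gene, at 1312 ± 152 FPKM with PAM3CSK4 and 900 ± 103 with zymosan. The remaining genes named here were Gcgr, Hk3, Il17f, Plau and Pld3, higher, and Hip1r and Ppfibp2, lower with zymosan. Replicates differed widely in some of them: Hk3, a hexokinase, ran from 24.2 to 65.7 FPKM within PAM3CSK4 and from 35.6 to 95.2 within zymosan, yet in each of the 4 pairs zymosan was above.

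RefSeq promoters of assembly GRCr8, each spanning 250 bases before to 50 after a gene's start, were found for 17 of the 23 genes that passed in either blocked fit, and 4 are printed because they hold the motifs of factors that act in this response or in lysosome biogenesis. Capitals mark the motif, on either strand. The kappa B motif of NF-kB (GGGA and TTCC with any 2 bases between) occurs in Batf (chr6:111084467-111084766, plus strand) and, on the other strand, in Lcn2 (chr3:36081731-36082030, minus strand).
Batf: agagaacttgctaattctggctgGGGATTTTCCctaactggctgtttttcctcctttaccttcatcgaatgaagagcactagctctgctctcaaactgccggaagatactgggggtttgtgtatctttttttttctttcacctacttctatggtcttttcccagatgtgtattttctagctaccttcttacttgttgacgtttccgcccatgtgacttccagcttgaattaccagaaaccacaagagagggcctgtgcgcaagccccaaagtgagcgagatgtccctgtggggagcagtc
Lcn2: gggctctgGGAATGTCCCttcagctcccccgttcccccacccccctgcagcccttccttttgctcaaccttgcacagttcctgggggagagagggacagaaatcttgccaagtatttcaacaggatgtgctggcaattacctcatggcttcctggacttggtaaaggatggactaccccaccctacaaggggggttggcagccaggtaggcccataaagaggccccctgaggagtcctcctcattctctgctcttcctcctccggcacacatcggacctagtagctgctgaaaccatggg

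The AP-1 motif TGANTCA occurs at 2 places in Cd68 (chr10:54882392-54882691, minus strand), and the E-box CACGTG, bound by the TFE and MITF factors of lysosomal genes, at 2 places in Ctsd (chr1:206968772-206969071, minus strand).
Cd68: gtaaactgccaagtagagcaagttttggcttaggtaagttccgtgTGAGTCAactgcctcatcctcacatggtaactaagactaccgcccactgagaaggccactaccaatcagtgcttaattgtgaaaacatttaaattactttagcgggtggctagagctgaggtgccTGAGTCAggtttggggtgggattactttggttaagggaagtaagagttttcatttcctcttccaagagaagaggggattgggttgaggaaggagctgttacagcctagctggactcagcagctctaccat
Ctsd: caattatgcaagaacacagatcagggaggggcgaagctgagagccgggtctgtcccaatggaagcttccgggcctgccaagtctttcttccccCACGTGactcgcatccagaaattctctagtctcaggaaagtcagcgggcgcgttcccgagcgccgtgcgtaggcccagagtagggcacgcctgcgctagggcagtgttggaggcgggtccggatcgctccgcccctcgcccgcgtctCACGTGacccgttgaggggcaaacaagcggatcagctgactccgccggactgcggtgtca

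Over all 33469 promoters of this length, 1.30% held the NF-kB motif, 7.33% the AP-1 motif and 6.42% the E-box. Among the 17 genes, 3 held the first (Batf, Lcn2 and Ccl7), 4 the second (Cd68, Trem2, Ccl7 and Gpnmb) and 1 the third. The PU.1 motif AGAGGAAG was in 4.38% of all promoters and in 1 of the 17, Gpnmb. These are matches of letters, described without a test.

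Without the block, the genes with the smallest p were ordered for each direction, among those without overlap between groups and with at least 5 FPKM in the mean of the higher group. In all, 172 genes (1.94%) had 4 zymosan values above all 4 PAM3CSK4 values and 38 (0.429%) had them below; none of these passed the test without the block. On the lower side, after Cd69 and Batf, came Lcn2 with 571, 608, 541 and 431 FPKM with PAM3CSK4 and 256, 309, 239 and 311 with zymosan (-0.94 ± 0.21, adjusted p in limma 0.462, with the block 0.124, in the 8 libraries alone 0.049). With PBS it averaged 3.2 ± 1.0 FPKM. Ifnb1, the gene of interferon beta, followed at 4.19, 9.06, 9.38 and 4.88 FPKM with PAM3CSK4 and 0.727, 0.650, 3.08 and 2.57 with zymosan, from 18 to 38 and 3 to 13 resolved reads. It differed from PBS with PAM3CSK4 (2.19, adjusted p in limma 0.00038), and its value against PBS with zymosan was 0.62 (adjusted p 0.339); the difference between agonists, -1.57 ± 0.40, had an adjusted p of 0.902. Csf2, encoding GM-CSF, was 147, 171, 176 and 168 FPKM with PAM3CSK4 and 85.8, 86.4, 85.2 and 139 with zymosan, with replicate 4 the highest zymosan library by far (-0.76 ± 0.27, adjusted p in limma 1). The others on this side were Egln3, an oxygen-sensing prolyl hydroxylase (5.34 ± 1.02 against 2.58 ± 0.92 FPKM), Ccnl1, a cyclin of RNA processing (44.7 ± 4.6 against 33.7 ± 2.6), and Ier3.

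On the higher side Cd68 was followed by Ccnd1, cyclin D1, which drives entry into the cell cycle. Ccnd1 was 30.1, 24.5, 35.6 and 34.2 FPKM with PAM3CSK4 and 70.3, 53.0, 48.9 and 51.0 with zymosan, and 209 ± 22 with PBS (0.82 ± 0.17 between agonists, adjusted p in limma 0.26, with the block 0.055). Il17f, a cytokine of the interleukin-17 family, was listed at 0 in the 4 PBS libraries. It was 2.04, 2.26, 0.231 and 0.585 FPKM with PAM3CSK4, from 26, 22, 2 and 5 resolved reads, and 4.63, 7.76, 2.88 and 5.30 with zymosan, from 59, 83, 26 and 62. Every zymosan library was above every PAM3CSK4 library (1.49 ± 0.37, adjusted p in limma 0.822, in the 8 libraries alone with the block 0.049). Outside the zymosan group Il17f reached 1 FPKM in 3 libraries, so it entered the test only through the group where it was high, and these values are a description. Tspan4, a tetraspanin, was 8.78 ± 2.45 against 14.3 ± 1.9 FPKM, Hhex, a homeobox repressor, 7.64 ± 2.87 against 12.3 ± 1.0, and Mospd1 3.26 ± 0.70 against 5.62 ± 0.74 (each n = 4). Tspan4, Hhex and Mospd1 passed in no blocked fit.

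**Figure D3:**
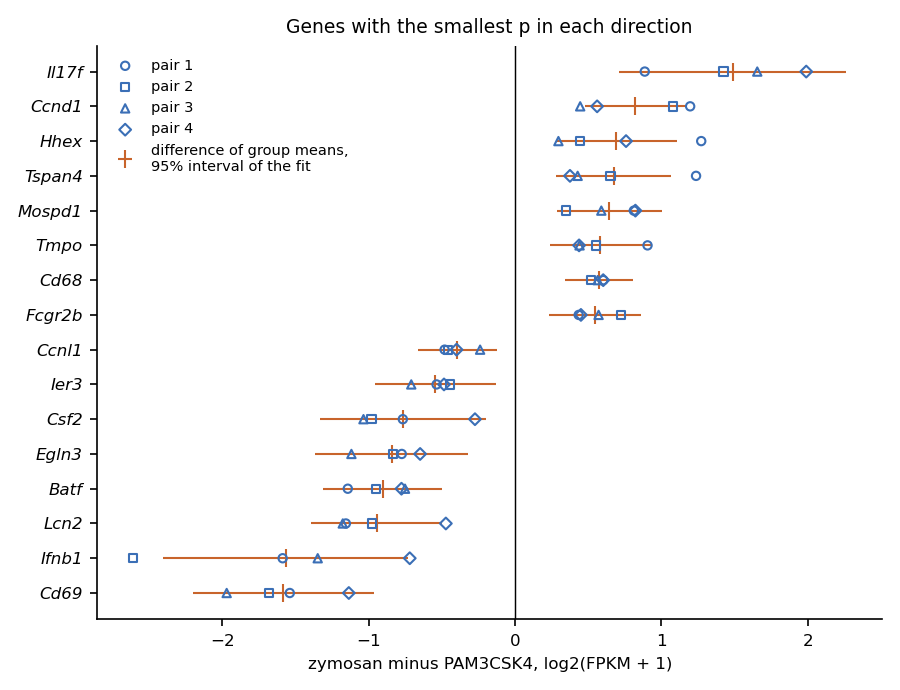
Zymosan minus PAM3CSK4 on the log2(FPKM + 1) scale in each of the 4 pairs of equal replicate number (blue symbols), with the difference of group means and its 95% interval without the block (orange), for the 8 genes of smallest p in each direction without overlap between groups. All symbols of a gene lie on the same side of 0, as the choice of genes without overlap requires. The means run from -1.58 (Cd69) to 1.49 (Il17f).

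Gene lists by role were described by their counts and medians beside those of all genes tested, where 69.7% lay above 0, 19.5% were higher with zymosan in 4 of 4 pairs and 5.07% lower in 4 of 4. Among the sensors, no receptor named for these ligands passed with or without the block, and the differences of Tlr2 and Tlr6 had wide error. Tlr2 was 61.8, 154, 182 and 178 FPKM with PAM3CSK4 and 100, 199, 211 and 202 with zymosan, with replicate 1 the lowest of both groups (0.36 ± 0.39, adjusted p in limma 1). Tlr1, its partner for triacylated lipopeptides, was 2.62 ± 1.36 against 3.70 ± 1.15 FPKM. Tlr6, the partner for zymosan, was 13 ± 3.6 against 13.4 ± 4.6 (0.01, with a 95% interval from -0.87 to 0.90), and its sign turned with rescaling. Cd14, the co-receptor that hands ligands to TLRs, was 460 to 884 against 786 to 1124 FPKM, higher in 4 of 4 pairs (0.50 ± 0.23, adjusted p in limma 1). Tlr4, the LPS receptor, was 1.18 to 9.93 against 4.56 to 10.7 FPKM. Of 18 tested Toll-like receptors, co-receptors and adaptors, 16 lay above 0 and 6 were higher in 4 of 4 pairs, with a median of 0.11, or 0.01 after rescaling.

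Dectin-1 itself was scarce. Clec7a was 1.67, 2.51, 1.84 and 2.23 FPKM with PAM3CSK4 and 1.45, 4.16, 3.46 and 2.90 with zymosan; the PBS mean was 3.81 ± 0.78. Zymosan was above in 3 of 4 pairs (0.34 ± 0.23, adjusted p in limma 1). Of 24 tested C-type lectins and phagocytic receptors 21 lay above 0 and 11 were higher in 4 of 4 pairs, with 3 lower; the median was 0.33, and 0.25 either after rescaling or without both replicate 1 libraries. Examples beside Fcgr2b are Clec4a1, a C-type lectin (4.50 ± 2.39 against 9.18 ± 3.86 FPKM), and Fcgr3a, an activating Fc receptor (59.5 ± 15.3 against 85.0 ± 22.1), higher in 3 of 4 pairs. The 3 that were lower in every pair were Clec12a (14.9 against 12.2 FPKM at the mean), Scarf1 (3.61 against 3.28) and Cd5l (1.55 ± 0.92 against 0.73 ± 0.59). They are named after their values were seen. Cd5l reached 1 FPKM in 2 libraries outside the PAM3CSK4 group and in 3 outside the zymosan group. Without the PAM3CSK4 group, where it was higher, it would not have entered the test, and its values are a description. Downstream, Syk was 4.76 ± 1.76 against 5.35 ± 1.78 FPKM and Card9 37.7 ± 13.3 against 34.7 ± 4.7, neither separated beyond the spread. Of 25 tested genes of Syk and CARD9 signalling, 22 lay above 0 and 12 were higher in 4 of 4 pairs, but the median of 0.15 fell to 0.06 on rescaling. Within it Inpp5d, the inositol phosphatase SHIP1, was 19.7 to 20.8 FPKM with PAM3CSK4 and 24.0 to 27.3 with zymosan, without overlap (0.33 ± 0.11, adjusted p in limma 1), and the exchange factor Vav3 was 3.19 ± 0.98 against 4.97 ± 1.44.

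For 26 tested members of NF-kB signalling and its inhibitors the median was 0.02, with 13 above 0. Against PBS 14 of them were called higher with zymosan and 16 with PAM3CSK4, beside 4.66% and 5.62% of all genes. Birc3, an NF-kB-induced ubiquitin ligase, was 53.2 ± 17.9 against 39.3 ± 11.4 FPKM and Ripk2, the kinase downstream of NOD receptors, 99.3 ± 30.8 against 73.5 ± 30.1, each lower with zymosan in 4 of 4 pairs. Immediate early genes, 32 tested, had a median of -0.06, with 8 above 0 (25%) and 5 lower in 4 of 4 pairs (15.6%). Zfp36, which destabilises cytokine mRNAs, was 54.4 ± 2.1 against 46.8 ± 5.6 FPKM, while Egr1 was 5.67 ± 0.43 against 6.43 ± 1.35.

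Cytokine and chemokine genes split evenly around 0, whereas all genes lay mostly above it. Of 41 tested, 21 lay above 0 (51.2%, against 69.7% of all genes). In 4 of 4 pairs 8 were higher (19.5%, the same share as in all genes) and 8 lower (19.5%, against 5.07%). The median was 0.04, against 0.09 over all genes, or -0.14 to 0.08 within single pairs and -0.05 after rescaling. Il1b reached 7306, 11431, 13101 and 11955 FPKM with PAM3CSK4 and 7301, 10720, 10801 and 11199 with zymosan, so the groups overlapped almost fully (-0.12 ± 0.21, adjusted p in limma 1). Tnf was 120 ± 22 against 131 ± 29 FPKM (0.12 ± 0.24). The neutrophil chemoattractant Cxcl1 stood apart from these at 3106, 3445, 4116 and 3192 FPKM with PAM3CSK4 and 1767, 2232, 2050 and 2500 with zymosan. Its groups did not overlap, and the difference was -0.70 ± 0.28 (adjusted p in limma 1, with the block 0.497, in the 8 libraries alone with the block 0.063). Il6 was 703 ± 119 against 521 ± 109 FPKM and Cxcl2 497 ± 157 against 380 ± 145. The monocyte attractant Ccl2 leaned the other way, at 4286 to 5867 against 5431 to 7126 FPKM and higher in 4 of 4 pairs, as did the related Ccl7. None of these differences was called without the block. Ccl3 was 8145 ± 972 against 7069 ± 961 FPKM, Ccl5 5.08 ± 2.67 against 5.08 ± 1.89, and Csf3, encoding G-CSF, 245 ± 70 against 264 ± 53. Il10, the anti-inflammatory cytokine, was 15.3 ± 4.3 against 10.6 ± 3.2 FPKM, Il23a 15.5 ± 10.7 against 11.3 ± 6.1, and the alarmin Il33 3.53 ± 1.15 against 6.31 ± 3.03. Il12b lay below the filter. No member of the list passed without the block.

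Enzymes of lipid mediators and nitric oxide split by gene. Of 22 tested, 12 lay above 0 and the median was 0.02. Nos2, the inducible nitric oxide synthase, was 127 to 517 FPKM with PAM3CSK4 and 89.7 to 428 with zymosan, lower in 4 of 4 pairs (-0.44 ± 0.51, adjusted p in limma 1), and Ptgs2, cyclooxygenase 2, was 30.1 to 352 against 33.0 to 180. In both genes replicate 1 was the lowest library of each group. By contrast Ptges, the prostaglandin E synthase that acts after Ptgs2, was 2.08 ± 1.33 against 5.12 ± 3.82 FPKM, Alox15, a lipoxygenase, 5.79 ± 3.61 against 11.9 ± 3.5, and Alox5ap, the activating protein of 5-lipoxygenase, 7.02 ± 2.60 against 12.2 ± 3.1, each higher in 4 of 4 pairs. For the 17 acute-phase, antimicrobial and metal-binding genes the median was 0.06; beside Lcn2, the protease inhibitor Slpi was 4.73 ± 0.45 against 3.07 ± 0.97 FPKM, the metallothionein Mt2A 59.5 ± 42.6 against 36.2 ± 18.2, and transferrin (Tf) 3.56 ± 1.43 against 5.83 ± 1.41.

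Metabolic and redox lists stayed near the median of all genes. The 29 NADPH oxidase and NRF2 target genes had a median of 0.07, with 7 higher and 5 lower in 4 of 4 pairs: Cybb, the catalytic subunit of the phagocyte oxidase, was 28.3, 57.8, 78.8 and 54.0 against 59.0, 104, 98.6 and 87.0 FPKM, whereas the NRF2 targets Sqstm1 (1077 ± 286 against 794 ± 210) and Slc7a11 (25.4 ± 5.5 against 19.2 ± 6.9) were lower with zymosan in every pair. Glycolysis and hypoxia genes (27) had a median of 0.08, with Egln3 and Ankrd37 (2.66 ± 0.43 against 1.37 ± 0.71 FPKM) lower and without overlap. Ankrd37 rests on 12 to 20 resolved reads with PAM3CSK4 and 5 to 12 with zymosan. Cholesterol synthesis (24; median 0.12, example Ebp at 13 ± 2.5 against 16 ± 2.5 FPKM) and liver X receptor targets (26; median 0.13) gave 0.02 and 0.03 after rescaling. In the latter list the receptor Nr1h3 itself was 0.813 ± 0.467 against 2.05 ± 0.46 FPKM, without overlap, from 2 to 14 and 21 to 38 resolved reads. The fatty acid carrier Fabp4 was 318 ± 88 against 452 ± 131 FPKM. The 24 genes of coagulation, plasminogen activation and matrix remodelling had a median of 0.11: the collagenase Mmp13 was 73.4 to 281 against 45.1 to 104 FPKM, and Serpinb2, the plasminogen activator inhibitor 2, listed at 0 in PBS, was 6.98, 10.7, 48.4 and 27.5 against 17.9, 24.9, 67.2 and 53.0.

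Lysosomal genes were higher with zymosan in most pairs. Of 31 tested hydrolases and membrane proteins 28 lay above 0, and 21 were higher in 4 of 4 pairs and 1 lower. Without overlap between groups 6 were higher (19.35%, against 1.94% of all genes). The median was 0.22, with 0.11 after rescaling and 0.15 without both replicate 1 libraries. With the block, 2 of the 31 passed as higher over 20 libraries and 4 in the 8 libraries, against 0.0564% and 0.169% of all genes. Besides Cd68, Ctsb, Ctsd and Gpnmb, cathepsin Z (Ctsz) was 548 to 688 FPKM with PAM3CSK4 and 786 to 803 with zymosan. Outside the list, the acid nuclease Dnase2, named because it passed with library quality weights, was 47.9 to 56.6 and 64.5 to 77.1 FPKM. Both groups had more members lower than PBS than higher, as had all genes tested. With zymosan 6 were called lower and 2 higher, and with PAM3CSK4 12 lower and 2 higher, with list medians of -0.17 and -0.52. Over all genes 14.2% were called lower and 4.66% higher with zymosan (median -0.18). With PAM3CSK4 these shares were 22.6% and 5.62% (median -0.27). The cysteine protease Ctss (82.5 ± 9.3 against 98.9 ± 3.2 FPKM), the thiol reductase Ifi30 (151 ± 9 against 190 ± 20) and RT1-DMa (9.22 ± 1.09 against 12.4 ± 1.1), which serve MHC class II presentation, were the 3 of 8 tested members of that list without overlap. These 3 are 37.5% of that list, against 1.94% of all genes that were higher without overlap. The list as a whole was split, with 4 above 0 and a median of 0.03.

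The unfolded protein response and chaperones of the endoplasmic reticulum leaned to PAM3CSK4. Only 1 of 26 tested genes lay above 0, 15 were lower with zymosan in 4 of 4 pairs, and the median was -0.21, with -0.31 after rescaling and -0.24 without both replicate 1 libraries; no member passed. Dnajb9, an HSP40 co-chaperone, was 66.6, 73.5, 69.5 and 77.7 FPKM with PAM3CSK4 and 41.8, 49.8, 48.3 and 67.3 with zymosan. Its highest zymosan library exceeded the lowest PAM3CSK4 library by a little (-0.48 ± 0.21, adjusted p in limma 1). Creld2, a protein induced by ER stress, was 91.1 ± 15.8 against 65.0 ± 12.2 FPKM, Herpud1 of ER-associated degradation 126 ± 26 against 94.2 ± 15.7, and the factor Atf4 386 ± 37 against 336 ± 21. Against PBS, 6 of the 26 members were called higher with PAM3CSK4 and 2 with zymosan, a difference in counts that was not itself tested. Over all genes 5.62% were called higher with PAM3CSK4 and 4.66% with zymosan. Of 38 interferon-stimulated genes 16 lay above 0, none was higher and 4 were lower in 4 of 4 pairs (median -0.03); Rsad2, an antiviral enzyme, was 114 ± 32 against 73.6 ± 24.7 FPKM and Isg15, a ubiquitin-like modifier, 234 ± 82 against 167 ± 50.

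**Figure D4:**
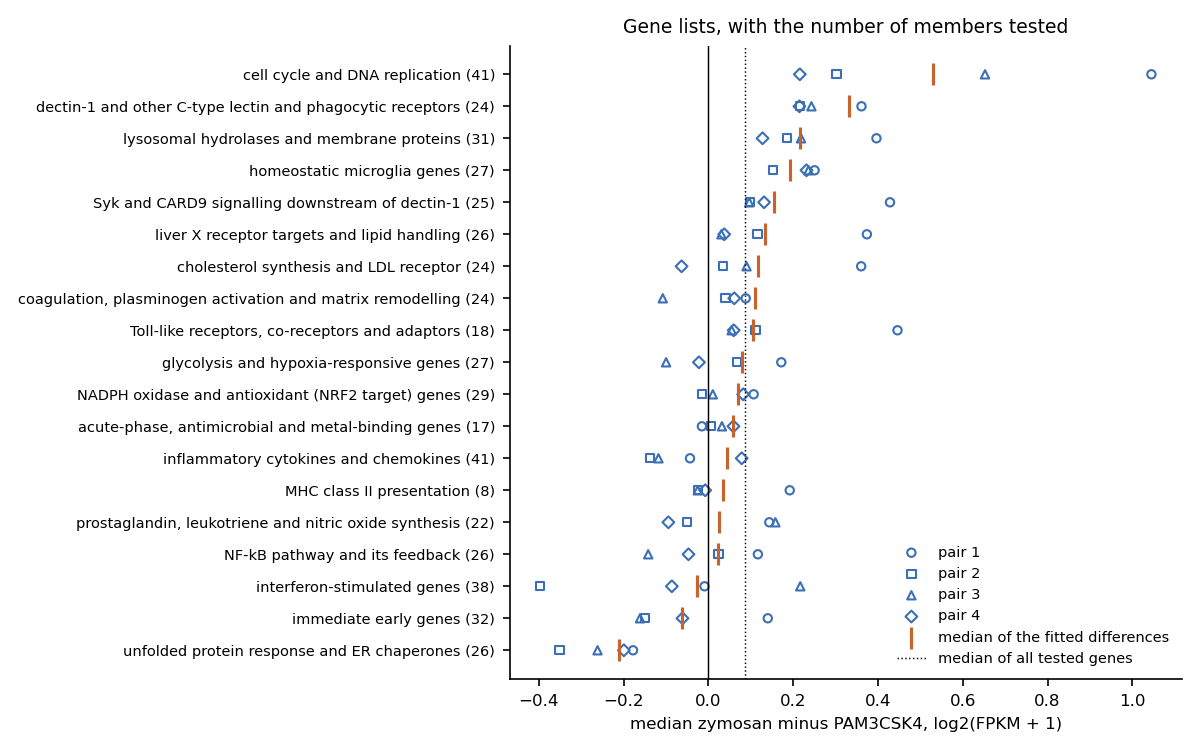
Median zymosan minus PAM3CSK4 on the log2(FPKM + 1) scale for each of 19 gene lists (number of tested members in brackets), over all 4 pairs (orange bars) and within each pair (blue symbols). Cell cycle genes lie highest (0.53) and the unfolded protein response lowest (-0.21), beside a median of 0.09 over all genes (dotted line).

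Genes of the resting microglial state were mostly low after either agonist, and at the median less so with zymosan. Of 27 tested homeostatic genes 25 lay above 0 and 14 were higher in 4 of 4 pairs, none lower; the median was 0.19, with 0.09 after rescaling and 0.23 without both replicate 1 libraries, and Trem2 was the member that passed with the block. Csf1r, the receptor for CSF1 on which microglia depend, was 60.4, 102, 107 and 101 FPKM with PAM3CSK4 and 131, 157, 157 and 131 with zymosan, without overlap (0.66 ± 0.20, adjusted p in limma 0.993), beside 512 ± 73 with PBS. Gpr34, a lysophosphatidylserine receptor, was 0.311 to 2.06 against 1.09 to 4.49 FPKM, and Gpr183, an oxysterol receptor, 3.04 to 6.58 against 5.65 to 7.97. The fractalkine receptor Cx3cr1 was 0, 3.09, 2.24 and 5.22 FPKM with PAM3CSK4 and 1.90, 3.99, 4.73 and 7.95 with zymosan, against 68.7 ± 23.9 with PBS. P2ry12 was at most 1.08 FPKM in any library of either group, and Tmem119 was 6.97 ± 4.57 against 8.09 ± 3.21. Of this list 16 genes were called lower than PBS with zymosan and 18 with PAM3CSK4, with medians of -1.20 and -1.54. The shares called lower over all genes were 14.2% and 22.6%.

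Cell cycle and DNA replication genes showed the widest offset of any list. Of 41 tested, 40 lay above 0, and 23 were higher with zymosan in 4 of 4 pairs and none lower. Higher without overlap were 3 (7.32%, against 1.94% of all genes). The median was 0.53, with 0.45 after rescaling and 0.39 without both replicate 1 libraries. Pair 1 had the largest median, 1.04, and the other pairs 0.22 to 0.65. No member passed with or without the block. With library quality weights 2 passed, Ccnd1 higher (adjusted p in limma 0.034) and the related cyclin Ccnd2 lower (0.048). Ccnd2, the 1 member below 0, was 36.1 ± 9.5 against 25.4 ± 5.7 FPKM and lower in 3 of 4 pairs (-0.48 ± 0.21 without weights). Birc5, survivin, was 1.27, 2.56, 1.02 and 2.40 FPKM with PAM3CSK4 and 3.68, 5.89, 3.73 and 2.75 with zymosan, without overlap (0.84 ± 0.25, adjusted p in limma 0.993). Pcna, the replication clamp, was 40.9 ± 6.8 against 55.7 ± 8.0 FPKM, and thymidine kinase 1 (Tk1) 4.93 ± 1.74 against 8.61 ± 2.85. With both agonists the list lay far under PBS, where Pcna was 134 ± 9 FPKM. Called lower were 38 of 41 genes with zymosan and 40 with PAM3CSK4, with medians of -1.90 and -2.50. Among all genes 14.2% and 22.6% were called lower.

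A last description asked whether the direction of a gene's response to a further TLR agonist went with its difference between zymosan and PAM3CSK4. Genes were split by LPS against PBS, and this split was chosen after seeing the data. The difference of LPS from PBS uses no library of the comparison. Its adjusted p, which sets the classes, draws on the spread of all 20 libraries, zymosan and PAM3CSK4 included. LPS gave 445 genes higher than PBS (5.02%) and 2421 lower (27.3%). The median difference between zymosan and PAM3CSK4 was -0.10 over the genes higher with LPS, 31.2% of them above 0, and 0.17 over those lower with LPS, 85.0% above 0; it was 0.07 over the other 5992. Among the 96 genes at least 4-fold higher with LPS, on the log2(FPKM + 1) scale, it was -0.22, and among the 204 at least 4-fold lower it was 0.42, with 93.1% above 0. In these classes the median was larger where LPS moved genes more, with a sign opposite to that of LPS against PBS. The sign held in each of the 4 pairs, -0.02 to -0.21 over the genes higher and 0.12 to 0.30 over those lower with LPS, as well as after rescaling (-0.20 and 0.09) and without both replicate 1 libraries (-0.13 and 0.13). The classes themselves depended on scaling: called after rescaling, LPS gave 1093 genes higher and 1200 lower. Over these the median of the unscaled differences was -0.03, with 43% above 0, and 0.23, with 88.4% above 0. The sign in the higher class then turned in pair 1 (0.07, against -0.10 to -0.03 in the other pairs), and the rescaled differences had medians of -0.12 and 0.16. Genes within a class are not independent, and no test was made.

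**Figure D5:**
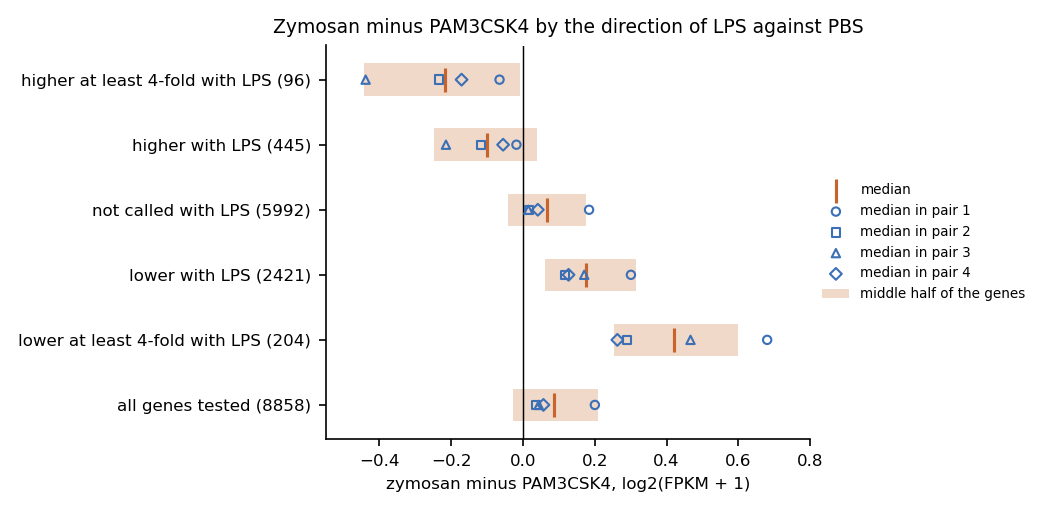
Median zymosan minus PAM3CSK4 on the log2(FPKM + 1) scale, (orange bars) with the range between quartiles (shaded), for genes grouped by their direction with LPS against PBS (number of genes in brackets), and the median within each pair (blue symbols). The medians run from -0.22 for genes at least 4-fold higher with LPS to 0.42 for genes at least 4-fold lower.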

How the data were processed

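The authors deposited 1 table of FPKM values by gene symbol, with no read counts. Of tools, Cufflinks 2.2.1, DESeq2, featureCounts 1.4.6 and HISAT2 2.0.5.1 appear, beside build rn6, in the submitters' processing notes, without a role for any; Smart-Seq2 and Nextera XT were the library methods, per the labels' protocols. FPKM is relative to a library's own total, so a large rise of some genes lowers the others. Groups and replicate numbers come from the labels. Values were tested as log2(FPKM + 1), a scale that understates changes of low genes, in limma 3.58.1 (R 4.3.3) with a mean-variance trend, on all 20 libraries with 5 group means, two-sided, with Benjamini-Hochberg adjustment over 8858 genes and a threshold of 0.05; the script was tested on simulated data. Python 3.11.15, pandas 2.3.3 and matplotlib 3.10.9 were used for summaries and plots. For spelling, 14814 symbols were matched directly and 2113 through synonyms to RefSeq genes (GRCr8).

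The FPKM values of a gene were whole multiples of 1 step for 88.9% of tested genes (relative tolerance 1.2e-05), which gave relative depth and resolved reads; a step may be part of a read in some genes. Whole-read precision covers counting error only. Exact zeros can be failed estimates: with the rest of their group at 5 FPKM or more, 41 values (21 genes) were 0, 18 of them in these groups.

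Pairing was checked on the deviations of each library from its group mean. Zymosan and PAM3CSK4 libraries of equal number correlated at 0.792, 0.564, 0.554 and 0.525 for replicates 1 to 4, and those of unequal number at -0.61 to 0.308, so the numbers pair the samples by the data; the labels give no reason for it. The blocked fit adds a term for the replicate number, which over 20 libraries is shared by all 5 groups. Pairing in the PBS, morphine and LPS groups was not checked.

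The libraries compared, the gene lists and the rule for named genes were chosen with earlier results of these data known. The rule takes genes without overlap and a higher mean of at least 5 FPKM, the 8 smallest p in each direction where fewer than 5 passed, members of each list and a fixed set; the other genes that passed only with the block or with library weights, and the antisense gene named under the processing alternatives, were named after their values were seen. Of the genes that passed with the block, 1 is not reported here. Alternatives were rescaling, pseudocount, filter, block, library weights, zeros as missing and libraries left out. The GRCr8 promoters were read from the RefSeq table and not converted to rn6.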

Additional observations from a re-analysis of the deposited data

Results flagged for a closer look

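A library was set aside for a closer look where it lay so far from the other 3 of its group that Dixon's test at 95% marked it (by its gap to the nearest of them as a share of the group's range). Over 202 groups of 4 values tested, 16 were marked; chance alone marks about 1 in 20 groups, and values of 1 library are not independent. Of the 16, 8 lay in PAM3CSK4 replicate 1, 4 in zymosan replicate 1 and 4 in other libraries.

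In PAM3CSK4 replicate 1 the number of genes above 0 was 9397, against 10247 to 10303 in the others of its group, and the median FPKM of tested genes was 5.643. There Card9 was 17.8 FPKM against 43.33 to 44.97, Csf1r 60.45 against 101 to 107.2, Hip1r 5.614 against 20.48 to 23.02, Atf4 330.7 against 399 to 409.3, and Ctss 68.69 against 86.15 to 88.5. Mt2A alone was high there, at 123.1 FPKM against 33.78 to 44. In zymosan replicate 1 the low values were Tlr2 at 100 FPKM, Il1b at 7301, Hk3 at 35.55 and Vav3 at 2.825. The other 4 were Trem2 in PAM3CSK4 replicate 4 at 28.22 FPKM against 15.9 to 17.64, Egr1 in PAM3CSK4 replicate 2 at 5.027 against 5.814 to 5.941, Csf2 in zymosan replicate 4 at 138.8 against 85.25 to 86.43, and Dnase2 in zymosan replicate 3 at 77.1 against 64.5 to 65.63. What sets replicate 1 apart was not tested.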

How the results depend on the processing

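The count of genes that passed limma's test depended on how the replicate number and the libraries were treated. It was 0 without the block, and also after rescaling, with a pseudocount of 0.1 FPKM, with exact zeros as missing, in the 8 libraries without a block, without both replicate 1 libraries, with each library left out in turn (0 to 0), and with voom on the resolved reads of 7871 genes, which leave out Cd68, Ctsb and Dab2. The replicate block gave 8 genes (5 higher, 3 lower) over 20 libraries and 21 (15 higher, 6 lower) over 8, and 2 (0 higher, 2 lower: Cd69 and Batf) with rescaling. Library quality weights gave 18 (10 higher, 8 lower). Without a filter 1 gene passed, higher: Znrd1-as1, an antisense gene whose reads cannot be told apart from those of its partner in a library without strand, listed at 0 in all 4 PAM3CSK4 libraries and at 0.327 to 0.616 FPKM with zymosan. Added after seeing the data, the block with a pseudocount of 0.1 FPKM gave 0 genes (smallest adjusted p 0.0594), the block with voom 0 (0.051), the block without any 1 pair 0 (0.058 to 0.247), and the paired 8 libraries 0 without pair 1, 2 or 3 and 2 without pair 4, both lower. The cause was not tested. Cd69 passed in 5 of 30 settings and Batf in 4, counting the unblocked fit.

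Of 97 named genes 86 kept the sign of their difference in every alternative that gave a value. These were 29 alternatives for 78 genes and 27, without voom, for 19. None of the 11 others passed in any. Part of this count is fixed by the choice of genes. Where groups do not overlap, leaving out libraries cannot turn the sign. Leaving out 1 library, the difference ran from -0.1952 to 0.2836 for Tlr6, -0.02755 to 0.3361 for Syk, -0.3559 to 0.07401 for Card9, -0.2998 to 0.02813 for Il1b, -0.01729 to 0.2239 for Tnf, -0.7698 to 0.07494 for Il23a, -0.1981 to 0.2937 for Ccl5, -0.0278 to 0.295 for Csf3, -0.8913 to 0.02433 for Nos2, -0.2699 to 0.08285 for P2ry12 and -0.09319 to 0.6654 for Tmem119. Rescaling, with or without the block, turned Tlr6 to -0.0862 and Ccl5 to -0.01641; library weights turned Ccl5 to -0.2492 and leaving out both replicate 1 libraries to -0.3223. In the blocked fits, over 20 or 8 libraries, Ccl5 was -0.3223 without pair 1; without pair 2, Tlr6 was -0.05777 and Csf3 -0.04378; without pair 3, Tlr6 was -0.02406, Card9 0.06894 and Il23a 0.05993; and without pair 4 Card9 was 0.0478. The medians of the cell cycle (0.35 to 0.82), lysosomal (0.05 to 0.32), C-type lectin (0.17 to 0.47), homeostatic (0.09 to 0.43) and unfolded protein response lists (-0.37 to -0.09) kept their sign in the 29 alternatives, with voom over the members it covers. Depth limits the genes of few reads, among them S100a5, Ifnb1, Il17f, Ankrd37, Nr1h3, Slpi, Ptges and Cd5l.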
